A study of Homo sapiens with 2 samples.

Results

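Among human embryonic stem cells (hESCs) exposed to bone morphogenetic protein 4 (BMP4), a minority carried transcripts of SOX17, a transcription factor of the SOX family. A cell was taken as SOX17-positive when at least 2 of its unique molecular identifiers (UMIs, each standing for 1 captured transcript) came from SOX17. It also had to hold at least 10000 UMIs in all, at most 25% of them mitochondrial, and less than 1 summed UMI of CER1 and GSC per 10000. CER1 and GSC mark the anterior primitive streak and its endoderm, so the last limit set such cells aside. In WT, 117 of the 3185 cells within the UMI and mitochondrial limits met this rule, a share of 3.67% (exact 95% binomial interval 3.05 to 4.39). These 117 are part of 3802 cells deposited for WT and of 10023 deposited for both libraries. The cells were chosen by their own SOX17, CER1 and GSC counts, so the levels of those 3 genes in them are a description and support nothing. No other gene was used. The CER1 and GSC limit also removed cells that carried FOXA2, GATA6 and LHX1, as given below, so low counts of those genes are partly set by the rule.

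WT was the H1 line and GATA3 KO was KO-GATA3-06, a monoclonal line with GATA3 edited, derived from an H1 line with a doxycycline-inducible Cas9 cassette. Both were kept in mTeSR1 with 50 ng/ml BMP4 and profiled at 48 h by droplet single-cell RNA sequencing of transcript 3′ ends. The treatment text of WT gives 1 h, whereas its title and recorded duration give 48 h, the value used here. Each condition was 1 library, so clone, cassette and genotype cannot be told apart, and cells of 1 library are not replicates. No test was made, and all intervals are 95% and cover counting error only.

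SOX17 is known in early human development for 2 distinct roles. In definitive endoderm it acts alongside FOXA2, a forkhead factor of that lineage. In human primordial germ cells, the precursors of egg and sperm, it acts alongside TFAP2C and upstream of PRDM1. The RNA-binding protein NANOS3 then marks the lineage, while SOX2 is switched off and POU5F1 and NANOG are kept. BMP signals lie upstream of human germ cells, and also of amnion, whose cells express TFAP2A, GATA3, HAND1 and ISL1. The question put to the SOX17-positive cells was which of these marker sets they carried.

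The 117 cells were deeply sampled, with a median of 74777 UMIs per cell and a range of 27845 to 297017. Their median of detected genes was 7710, and 67 of them (57.3%) held more than 7500 genes, the upper limit in the methods of the study. Mitochondrial UMIs made up 7.88% to 19.9% of each cell. Because more deeply sampled cells reach 2 SOX17 UMIs more easily, each was set beside the 5 cells without SOX17, under the same CER1 and GSC limit, that lay nearest to it in total UMIs. The resulting 585 matched SOX17-negative cells had a median of 74681 UMIs, 7811 detected genes and 12.0% mitochondrial UMIs, against 12.1% in the SOX17-positive cells. None of the 117 barcodes was among the 8 that the libraries shared. Of the 116 WT cells with the highest doublet scores, 1 was SOX17-positive (0.855% of these cells) and 38 were matched SOX17-negative cells (6.50%).

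SOX17 itself ranged from 2 to 57 UMIs per cell, with a median of 5 and an upper quartile of 11. Of the 117 cells, 33 sat at the threshold with exactly 2 UMIs, 54 held at least 6 and 32 held at least 10. Just outside the rule, 125 WT cells held exactly 1 SOX17 UMI, which is 3.92% of those within the limits. The highest CER1 and GSC level inside the rule was 0.878 per 10000 UMIs, the lowest outside it was 1.01, and 64 of the 117 cells had neither transcript. Outside the rule for this reason alone were 39 cells with at least 2 SOX17 UMIs, called CER1/GSC-high below. As a background, 1.20% of the 1502 cells with SOX2 and little amnion or streak RNA (SOX2-high, whatever their SOX17) had a SOX17 UMI, and 0.0666% had one once each cell was thinned at random to 10000 UMIs.

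GATA3 KO held 2 cells that met the rule, of 5303 within the UMI and mitochondrial limits (0.0377%, 0.00457 to 0.136). Over all cells within these limits, SOX17 was counted at 9.33 UMIs per 1000000 (CPM, 8.91 to 9.77) in WT and at 0.130 CPM (0.0909 to 0.180) in GATA3 KO. Median depths were 55629 and 49776 UMIs per cell. A single SOX17 UMI or more was found in 281 WT cells (8.82%) and in 20 GATA3 KO cells (0.377%). The first of the GATA3 KO cells had 4 SOX17 UMIs among 58040, with 1 UMI each of TFAP2C and NANOS3 and none of PRDM1 or SOX2. The second had 4 SOX17 UMIs among 47265, no TFAP2C, PRDM1 or NANOS3, and 4 UMIs of SOX2, 4 of HAND1 and 14 of EOMES. FOXA2 was at 0 in both. Cells with at least 2 SOX17 UMIs but at or over the CER1 and GSC limit numbered 39 in WT (1.22%) and 2 in GATA3 KO (0.0377%). The lower share in GATA3 KO was therefore not particular to cells under that limit. Over all cells within the limits, PRDM1 was at 2.16 CPM (1.95 to 2.37) in WT and 0.523 CPM (0.441 to 0.615) in GATA3 KO, and TFAP2C at 13.9 and 10.1 CPM. NANOS3 was closer, at 1.79 CPM (1.61 to 1.99) and 1.57 CPM (1.43 to 1.73), with overlapping intervals. FOXA2 was at 0.362 CPM (0.283 to 0.456) in WT and 0.0252 CPM (0.0101 to 0.0520) in GATA3 KO. SOX2 had the opposite order, at 153 CPM in WT and 389 CPM in GATA3 KO. GATA3 itself was at 19.1 CPM in WT and 11.0 CPM in GATA3 KO. A 3′ count of an edited gene does not show whether its coding sequence is intact, so this does not check the label.

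**Figure D1:**
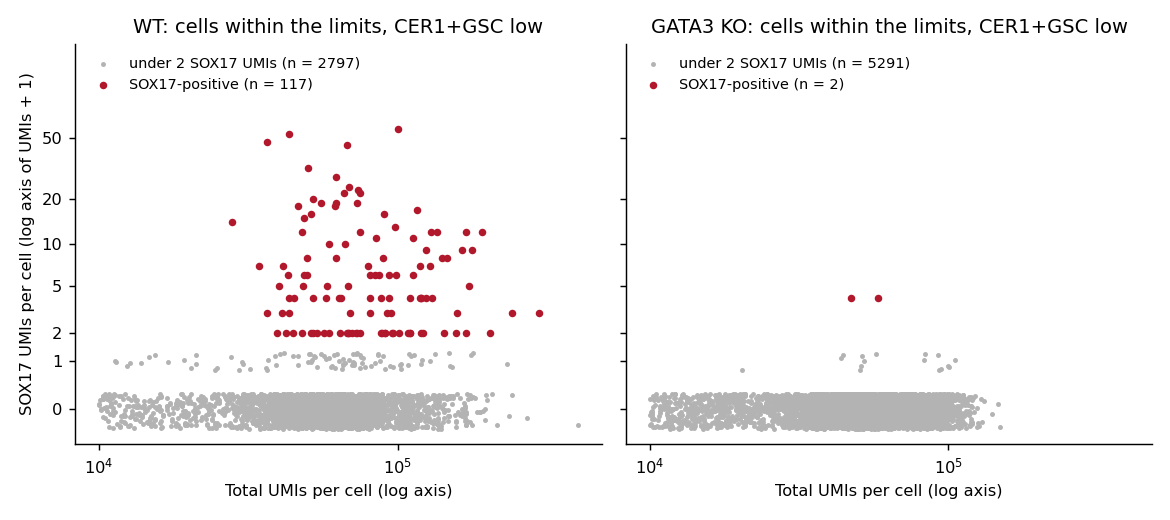
SOX17 UMIs per cell against total UMIs per cell in WT (left) and GATA3 KO (right), both on log axes, for cells within the limits and with CER1 and GSC under the limit. Red points are the 117 and 2 SOX17-positive cells, grey points are cells with 0 or 1 SOX17 UMI (spread vertically for visibility), and the highest red point in WT is at 57 UMIs.

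All 3 germ-cell markers were more abundant in the SOX17-positive cells than in the matched cells, and FOXA2 was not found in them. Levels are given as CPM over the summed UMIs of a group. Differences are log2 ratios of CPM plus 1, a scale that makes the differences of low genes look smaller. TFAP2C, an AP-2 factor shared by germ cells and trophoblast (GRCh38 chromosome 20, 56629306 to 56639283), was at 37.9 CPM (34.2 to 41.9) against 15.8 (14.7 to 16.9), a log2 ratio of 1.21 (1.04 to 1.38). PRDM1, a transcriptional repressor that closes off somatic genes in germ cells (chromosome 6, 105993463 to 106109939), was at 13.4 CPM (11.3 to 15.8) against 1.24 (0.955 to 1.59). Its log2 ratio of 2.68 (2.38 to 2.97) was the largest of the 3. NANOS3, which protects migrating germ cells (chromosome 19, 13862063 to 13880757), was at 8.65 CPM (6.95 to 10.6) against 1.64 (1.31 to 2.03), a log2 ratio of 1.87 (1.53 to 2.20). FOXA2 (chromosome 20, 22580998 to 22585455) had 0 UMIs among the 10290217 of the SOX17-positive cells, which allows at most 0.292 CPM and at most 2.56% of cells with a UMI. The matched cells held 5 FOXA2 UMIs in 4 cells, or 0.0987 CPM. Both groups lie under the CER1 and GSC limit, which set aside cells with FOXA2, so the count of 0 is partly fixed by the rule.

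Single cells spread widely around these levels. TFAP2C ranged from 0 to 20 UMIs per SOX17-positive cell and was found in 84 of the 117 (71.8%), against 48.9% of matched cells. PRDM1 ranged from 0 to 11 UMIs and was found in 51 cells (43.6%), against 7.52%. NANOS3 ranged from 0 to 14 UMIs and was found in 47 cells (40.2%), against 11.8%. In each gene the ranges of both groups overlapped, and the median SOX17-positive cell had no UMI of PRDM1 or of NANOS3. At least 2 of the 3 markers were found together in 61 SOX17-positive cells (52.1%, 42.7 to 61.5), against 72 of 585 matched cells (12.3%). All 3 were found in 26 cells (22.2%), against 9 matched cells (1.54%), and none of them in 22 cells (18.8%), against 45.6%.

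At equal depth, with each cell thinned at random to 10000 UMIs, the order of the groups was kept while every share became smaller. TFAP2C was then found in 25.6% of SOX17-positive cells (18.0 to 34.5) and 12.3% of matched cells (9.76 to 15.2). PRDM1 was found in 14.5% (8.70 to 22.2) and 1.03% (0.377 to 2.22). NANOS3 was found in 9.40% (4.79 to 16.2) and 1.37% (0.592 to 2.68). At least 2 of the 3 were found in 12 of the 117 (10.3%, 5.41 to 17.2) and 3 of the 585 (0.513%, 0.106 to 1.49). A second random thinning gave 7 of the 117 (5.98%), so this share rests on few cells and on the draw. SOX17-negative SOX2-high cells, chosen for little amnion and streak RNA, served as a background that free RNA would reach as well. Of 1484 such cells (median 54675.5 UMIs before thinning), 8.49% had TFAP2C, 0.674% PRDM1, 0.876% NANOS3 and 0.0674% at least 2 of the 3. Cells that took up more free RNA could fall outside this choice, so these shares may understate its reach.

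**Figure D2:**
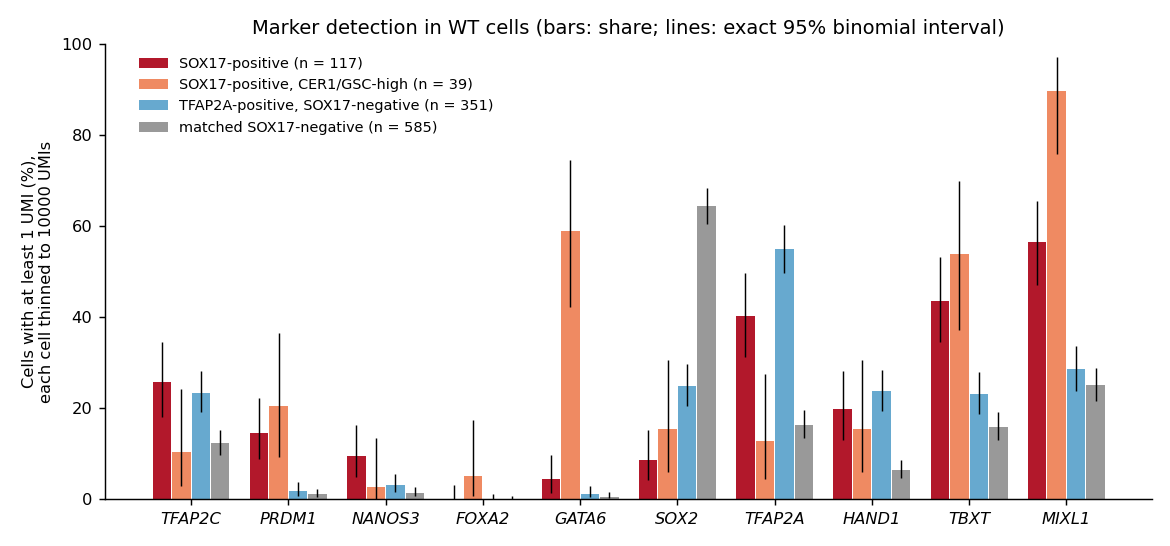
Share of WT cells (%) with at least 1 UMI of each gene after thinning every cell to 10000 UMIs, in 4 groups of cells, with exact 95% binomial intervals as lines. PRDM1 was found in 14.5% of SOX17-positive cells and 1.03% of matched SOX17-negative cells, FOXA2 in 0 of 117, and SOX2 in 8.55% against 64.4%.

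SOX2, the partner of POU5F1 in pluripotent cells, differed in the other direction. It was at 16.1 CPM (13.8 to 18.8) in SOX17-positive and 170.5 CPM (167 to 174) in matched cells, a log2 ratio of -3.32 (-3.54 to -3.11). Per cell it ranged from 0 to 28 UMIs, and 79 of the 117 had none, while 508 of the 585 matched cells (86.8%) had at least 1. POU5F1 was found in all 117 cells and was close to equal, at 844 against 959 CPM (log2 ratio -0.18, -0.22 to -0.15). NANOG was lower by 0.72 on the log2 scale, at 54.5 against 90.4 CPM, and was still found in 104 of the 117 cells. Both genes have near-identical copies elsewhere in the genome, so some of their reads may be lost or misplaced.

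Levels of these markers also varied with the SOX17 count itself. Among the 32 cells with at least 10 SOX17 UMIs, PRDM1 was at 31.7 CPM (25.1 to 39.5) and was found in 26 cells. Among the 33 cells with exactly 2 it was at 6.22 CPM. TFAP2C stood at 53.7 CPM (45.0 to 63.6) in the first and 28.3 CPM (22.5 to 35.1) in the second of these groups. NANOS3 was at 11.2 CPM (7.46 to 16.2) and 7.25 CPM (4.49 to 11.1), with overlapping intervals. SOX2 was lower by value in the first, with 11.2 CPM (7.46 to 16.2) against 21.1 CPM (16.1 to 27.1), and these intervals overlapped too. In the first group 1 cell gave 71.4% of the SOX2 UMIs. MIXL1, a homeobox gene of the primitive streak, had the opposite order, at 130 CPM in the high and 208 CPM in the low group. After thinning, PRDM1 was found in 34.4% of cells with at least 10 SOX17 UMIs, 13.6% with 6 to 9, 0 of 30 with 3 to 5, 9.09% with 2, 3.26% with 1 and 0.813% with none. SOX2 was found in 62.2% of cells with no SOX17 UMI, 34.8% with 1, 18.2% with 2 and 0 of 32 with at least 10. Median depth was 67211.5 UMIs in the group of at least 10 and 74867 in the group of 2, so in this pair the one with more SOX17 was not the deeper. Across the other groups unthinned depth rose with SOX17: 55030 UMIs with none, 63100.5 with 1, 80829 with 3 to 5 and 87735.5 with 6 to 9. The groups were drawn after the data had been seen. Intervals of neighbouring groups overlapped throughout for PRDM1, and for SOX2 except between 0 and 1 SOX17 UMI.

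**Figure D3:**
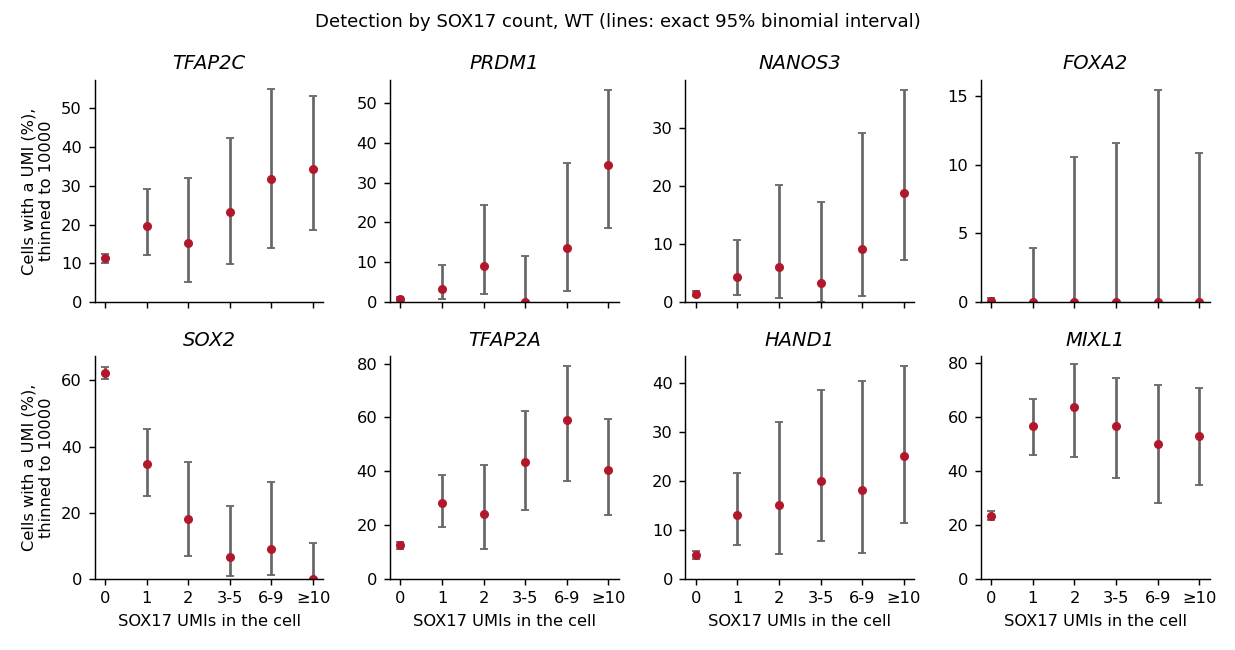
Share of WT cells (%) with at least 1 UMI of each of 8 genes after thinning to 10000 UMIs, by the number of SOX17 UMIs in the unthinned cell, with exact 95% binomial intervals. PRDM1 was found in 0.813% of cells without SOX17 and 34.4% of those with at least 10 UMIs, while SOX2 went from 62.2% to 0 of 32.

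The most strongly SOX17-positive cells differed in which markers they carried. The cell with the highest SOX17 level per UMI had 47 SOX17 and 5 PRDM1 UMIs among 36550, with no TFAP2C, NANOS3 or NANOG UMI and 4 of GATA6. The next had 53 SOX17, 6 PRDM1 and 1 TFAP2C UMIs, and none of NANOS3 or NANOG. The cell with most SOX17, at 57 UMIs, also had 8 TFAP2C, 4 PRDM1 and 2 NANOS3 UMIs, but 20 of SOX2. The 26 cells with all 3 germ-cell markers had a median of 10 SOX17 and 86244 total UMIs. Of them, 18 had no SOX2 UMI, 25 had GATA3 and all 26 had TFAP2A. The 22 cells with none of the 3 had a median of 2 SOX17 and 61615 total UMIs, and 16 of them lacked SOX2. TFAP2A was at 91.2 CPM (79.3 to 104) in the cells with all 3 markers and 23.3 CPM (16.2 to 32.4) in those with none, and MIXL1 was at 109 CPM (96.2 to 123) and 296 CPM (269 to 325).

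**Figure D4:**
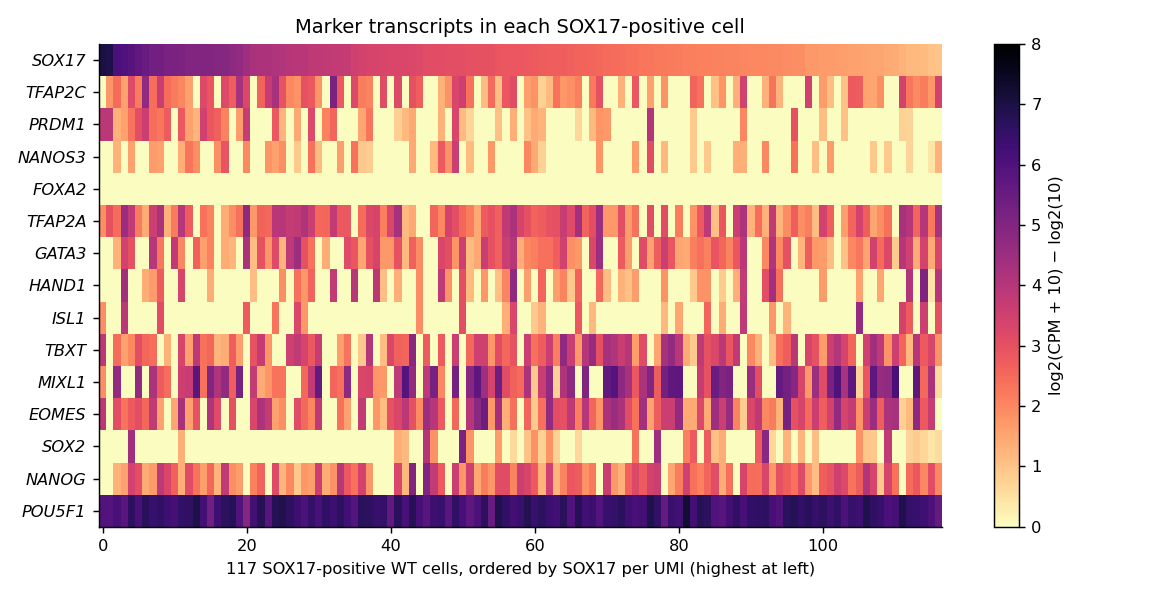
Level of 15 genes (rows) in each of the 117 SOX17-positive WT cells (columns, ordered by SOX17 per UMI with the highest at the left), as log2 of CPM plus 10 less log2 of 10, capped at 8. FOXA2 is empty throughout, POU5F1 is present in all 117 cells, PRDM1 is denser at the left, and SOX2 is empty in 79 cells.

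The 13 germ-cell genes as a list did not move together. At least 5 CPM in the higher group was reached by 6 of them, and 3 of these (TFAP2C, PRDM1 and NANOS3) were at least 2-fold higher in SOX17-positive cells, where 1.4% of all 9940 genes of that level were 2-fold higher and 1.52% 2-fold lower. Those 3 genes were picked with earlier results of these data known, so their count is no independent support. PRDM1 and NANOS3 also reached 5 CPM in SOX17-positive cells only. Their count and any median over the 6 genes thus partly follow from that limit. The same holds in the lists below for genes such as GATA6, MESP1, BMP2 and DKK1. The median log2 ratio was -0.21 for the 13 genes and 0.47 for the 6 that reached 5 CPM, against -0.05 for all 9940 genes of that level. KIT, the receptor that migrating germ cells carry, was at 6.32 against 8.01 CPM, found in 47 of the 117 cells. PDPN, a surface protein used to sort human germ cells, was at 67.2 against 81.5 CPM, and SOX15, a SOX factor of human germ cells, at 3.21 against 4.56 CPM. TFCP2L1, DND1, LAMA4 and ARID5B had log2 ratios of -0.08, -0.08, 0.13 and -0.33. The remaining genes of the list were scarce: CD38 had 0 UMIs, DPPA3 1 UMI, and KLF4 9 UMIs over the 117 cells. PRDM14, which with PRDM1 represses somatic genes in germ cells and also belongs to pluripotent cells, was at 0.486 against 2.37 CPM.

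Most endoderm genes were scarce as well, but FOXA3 was as abundant as PRDM1 and close to equal in the matched cells. Of 13 such genes, 3 reached 5 CPM, 1 of them 2-fold higher (GATA6) and 1 2-fold lower (OTX2), and the list's median log2 ratio was 0.01. Of all 9940 genes of that level, 1.4% were 2-fold higher and 1.52% 2-fold lower. GATA6, a factor of endoderm and mesoderm, was at 5.73 against 1.62 CPM and was found in 31 of the 117 cells, with 7 UMIs at most. GATA4 was at 2.72 against 0.849 CPM, LHX1 at 2.82 against 1.26 CPM, and FOXA3 at 13.4 against 13.3 CPM. CXCR4, a receptor used to sort definitive endoderm, had 4 UMIs, FOXA1 2 UMIs and APOA2 1 UMI, while HNF4A and TTR had none. Of 9 extraembryonic endoderm genes, 3 reached 5 CPM: GATA6 and COL6A1 (126 against 59.8 CPM) were 2-fold higher and AFP (2.24 against 5.80 CPM) was 2-fold lower, with a list median of 0.09.

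The 39 CER1/GSC-high cells, which also carried SOX17, gave another picture for most of these genes. SOX17 was at 272 CPM in them (252 to 293). FOXA2 was found in 4 of the 39 cells (10.3%, 2.87 to 24.2), at 3.90 CPM (1.87 to 7.17), an interval above the 0.292 CPM that the count of 0 allows in SOX17-positive cells. GATA6 was at 103 CPM (90.8 to 116) and LHX1 at 51.8 CPM, whereas TFAP2C was at 7.40 CPM (4.46 to 11.6) and NANOS3 at 3.51 CPM (1.60 to 6.66). PRDM1, also known in anterior endoderm, was at 24.9 CPM (19.2 to 31.8), above the 13.4 CPM of SOX17-positive cells. At least 2 of TFAP2C, PRDM1 and NANOS3 were found in 8 of the 39 (20.5%) unthinned, at a median depth of 62570 UMIs. SOX2 was low in these cells too, at 30.0 CPM, against 16.1 CPM in SOX17-positive and 170.5 CPM in matched SOX17-negative cells. Low SOX2 was therefore not particular to the SOX17-positive cells.

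Endothelium is a further tissue known for SOX17. Of 11 endothelial and blood genes, 2 reached 5 CPM (KDR and TEK) and neither differed by 2-fold, with a list median of 0. KDR, a receptor of early mesoderm and endothelium, was at 115 against 81.8 CPM, and TEK, the angiopoietin receptor, had a log2 ratio of -0.56. The defining adhesion genes PECAM1 and CDH5 had 0 and 1 UMI, and TAL1 had 0. By value, 4 genes of the list were higher and 5 lower. SOX18, LMO2 and ETV2 were present at low counts. In the 78 SOX17-positive cells with HAND1 and ISL1 each under 2 UMIs they had 22, 12 and 9 UMIs. In the 39 SOX17-positive cells with more HAND1 or ISL1 they had 3, 3 and 0.

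Amnion and streak genes were found in the same cells as the germ-cell markers. Of 12 amnion and trophectoderm genes, 7 reached 5 CPM and 3 of them (TFAP2A, CDX2 and DLX5) were 2-fold higher, with a list median of 0.54. Of all 9940 genes that reached 5 CPM, 1.4% were 2-fold higher. TFAP2A, an AP-2 factor of amnion and early germ cells, ranged from 0 to 36 UMIs per cell, was found in 105 of the 117 cells, and stood at 71.8 against 31.2 CPM. GATA3 was at 51.4 (47.1 to 56.0) against 26.2 CPM and was found in 96 cells (82.1%), against 36.8% of matched cells. HAND1, a factor of amnion and lateral mesoderm, was found in 53 cells (45.3%) against 12.6%, yet its summed level was 33.8 against 29.9 CPM. The highest matched cell carried 145 HAND1 UMIs and the highest SOX17-positive cell 54. Its log2 ratio was 0.17 and depended on the cells taken, at 2.37 among cells of at most 7500 genes and -0.27 with at least 3 SOX17 UMIs required. KRT7 and GABRP, which come later in amnion and trophoblast, were at 1.46 against 4.09 CPM and 3.89 against 4.30 CPM, and VTCN1 had 0 UMIs. Among cells of at most 7500 genes (50 SOX17-positive and 240 matched), all 7 amnion genes of that level were 2-fold higher, where 2.22% of 9739 genes were 2-fold higher and 2.79% 2-fold lower.

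Of 11 primitive streak and mesoderm genes, 6 reached 5 CPM and 3 (TBXT, MIXL1 and MESP1) were 2-fold higher, with a list median of 0.59. Among all 9940 genes of that level the share was 1.4%. TBXT, the Brachyury gene, was at 72.7 (67.6 to 78.1) against 20.5 CPM and was found in 97 of the 117 cells. MIXL1 was at 174 against 66.3 CPM (log2 ratio 1.38), with 0 to 126 UMIs per cell. EOMES, a T-box factor that precedes SOX17 in germ-cell competent cells and in endoderm, was at 89.1 against 49.1 CPM. MESP1, of early mesoderm, was at 18.6 against 3.22 CPM. In cells of at most 7500 genes the log2 ratio was 0.53 for MIXL1 and 0.10 for EOMES (0.85 in all cells). There 2 of 6 streak genes were 2-fold higher, against 2.22% of 9739 genes. At least 1 of TBXT, MIXL1 and EOMES was found in 111 of the 117 cells (94.9%) before thinning and in 79.5% after it, against 72.1% and 44.3% of matched cells.

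Germ-cell and amnion markers overlapped within cells and did not split the SOX17-positive cells cleanly. PRDM1 or NANOS3 was found in 69 cells (59.0%), HAND1 or ISL1 in 61 (52.1%), and both kinds in 40 (34.2%), against 17.4%, 16.8% and 6.15% of matched cells. Whether cells with both kinds were more frequent than the separate shares alone would give was not tested. Requiring 2 UMIs of HAND1 or of ISL1 gave 42 cells with PRDM1 or NANOS3 alone, 12 with HAND1 or ISL1 alone, 27 with both and 36 with neither. This division was made after the data had been seen. Median depths were 70860, 121526, 90259 and 68841.5 UMIs in that order, and a deeper cell has more chance of showing any marker. MIXL1 was highest in the cells with neither (268 CPM) and lowest in those with both (68.6 CPM). BMP4 transcripts stood at 40.4 CPM in the first group, 136 CPM in those with both, 129.5 CPM in those with HAND1 or ISL1 alone and 26.9 CPM in those with neither, and NODAL at 104, 48.8, 51.1 and 124 CPM.

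Because TFAP2A accompanied SOX17 so often, the SOX17-positive cells were also set beside 351 SOX17-negative cells with at least 2 TFAP2A UMIs, 3 matched in depth to each (median 74735 UMIs, a group chosen after the data had been seen). TFAP2C was close in this comparison, at 37.9 against 32.2 CPM (log2 ratio 0.23, 0.06 to 0.40). PRDM1 was not, at 13.4 against 1.57 CPM (2.49, 2.14 to 2.82), nor was NANOS3, at 8.65 against 2.72 CPM (1.37, 1.01 to 1.73). SOX2 was again lower, at 16.1 against 51.9 CPM (-1.63, -1.85 to -1.41). HAND1 was at 33.8 against 92.8 CPM and ISL1, a LIM homeobox factor of amnion, at 18.7 against 33.6 CPM, whereas TBXT was at 72.7 against 35.0 CPM and MIXL1 at 174 against 86.7 CPM. At least 2 of the 3 germ-cell markers were found after thinning in 1.42% of the TFAP2A-positive cells, against 10.3%. Across the transcriptome this was the nearer group: 0.317% of 9768 genes were 2-fold higher and 0.553% 2-fold lower.

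Direct BMP targets were higher in SOX17-positive than in matched cells throughout the list. All 9 reached 5 CPM and all 9 were higher, 2 of them (ID4 and BAMBI) by 2-fold, with a median log2 ratio of 0.65. Over all 9940 genes of that level, 1.4% were 2-fold higher and the median was -0.05. ID1 was at 835 against 522 CPM, ID3 at 1725 against 940 CPM and ID4 at 226 against 98.3 CPM, all of them dominant-negative helix-loop-helix proteins induced by SMADs. BAMBI, a decoy receptor of the pathway, was at 334 against 159 CPM. Against the TFAP2A-positive group, ID1 and BAMBI had log2 ratios of 0.03 and -0.14.

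Of 14 signals and receptors, 12 reached 5 CPM, 4 of them 2-fold higher and 4 2-fold lower (list median 0.29). For all 9940 genes of that level the shares were 1.4% and 1.52%. Higher were BMP2 (11.0 against 4.26 CPM), WNT5B (20.3 against 7.93 CPM), KITLG, the ligand of KIT (25.5 against 12.0 CPM), and the Wnt inhibitor DKK1 (7.68 against 1.56 CPM), of whose UMIs 1 cell gave 22.8%. Lower were SFRP1, a secreted Wnt antagonist (9.72 against 134 CPM), the Nodal inhibitors LEFTY1 (3.01 against 19.5 CPM) and LEFTY2 (2.04 against 8.56 CPM), and the chemokine CXCL12 (12.0 against 30.5 CPM).

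All 10 pluripotency genes were lower by value: 9 of 10 genes reached 5 CPM, none was 2-fold higher, SOX2 and TDGF1 were 2-fold lower, and the median was -0.65. Of all 9940 genes of that level, 1.52% were 2-fold lower, and their median was -0.05. Of 10 neural ectoderm genes, 2 reached 5 CPM and IRX2 was 2-fold lower (20.0 against 46.4 CPM), with a median of -0.27. Among 7 DNA methylation genes, 5 reached 5 CPM, and DNMT3B, the de novo methyltransferase of pluripotent cells, was 2-fold lower (108 against 253 CPM) while the maintenance enzyme DNMT1 was at 106 against 107 CPM (list median 0.00). VIM, an intermediate filament gene, was the only one of 7 measured adhesion genes past 2-fold, at 85.0 against 174 CPM, and CDH1 was at 121 against 110 CPM (list median 0.12). No S phase gene (9 of 10 reached 5 CPM, median -0.11) and no G2 or M gene (10 of 10, median 0.01) differed by 2-fold.

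Beyond the lists, the genes with the largest ratios had varied functions. Highest among the genes that reached 20 CPM was RGS16, a regulator of G-protein signalling, at 73.5 against 16.9 CPM (log2 ratio 2.05, 1.92 to 2.19) and found in 106 of the 117 cells. It was followed by CA12, a carbonic anhydrase, at 30.9 against 8.01 CPM. TBXT came next, then ATP12A, a proton pump, at 38.1 against 10.7 CPM, and TNC, the matrix protein tenascin C, at 27.5 against 7.74 CPM. AMIGO2, SAMD11, LINC00467, DMD, GABRB2 and MIXL1 were also among the 15 highest, with log2 ratios of 1.38 to 1.69. Both HAS2, which makes hyaluronan (89.2 against 28.8 CPM), and HAPLN1, which binds it to proteoglycans (116 against 41.0 CPM), were in this group. So were DIO3, which inactivates thyroid hormone (21.7 against 7.42 CPM), and CYP1B1, a cytochrome P450 of retinoid and steroid metabolism (72.3 against 26.3 CPM). Set beside the TFAP2A-positive cells, RGS16 kept a log2 ratio of 1.48, TNC 1.19 and HAS2 1.16, while HAPLN1 and DIO3 were at 0.06 and 0.03. Many of these genes were shared with the CER1/GSC-high cells, against which RGS16, AMIGO2 and TBXT had log2 ratios of -0.08, 0.07 and 0.12. HAS2, SAMD11, GABRB2, LINC00467 and MIXL1 were at -0.47, -0.62, -0.78, -0.81 and -1.62. Higher than in that group were HAPLN1 (3.50), DIO3 (2.33), DMD (1.18), CA12 (0.94), ATP12A (0.66), TNC (0.40) and CYP1B1 (0.20).

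Lowest of all was SFRP1 (log2 ratio -3.66, -3.93 to -3.40), with SOX2 second. FOXD3-AS1, a transcript antisense to the pluripotency gene FOXD3, was at 19.5 against 115 CPM, though reads of overlapping genes may be shared. USP44, a deubiquitinase of pluripotent cells, was at 19.8 against 111 CPM, and TERF1, a telomere-binding protein, at 265 against 943 CPM. AK4, AC007218.1, AASS, C1orf21 and LNCPRESS1 completed the 10 lowest, with log2 ratios of -2.22 to -1.85. All 10 were also lower than in the TFAP2A-positive cells, by 0.63 to 1.91 on the log2 scale. Against the CER1/GSC-high cells their log2 ratios ran from -1.28 (SFRP1) to 0.68 (LNCPRESS1), with FOXD3-AS1 and TERF1 both at -0.08.

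**Figure D5:**
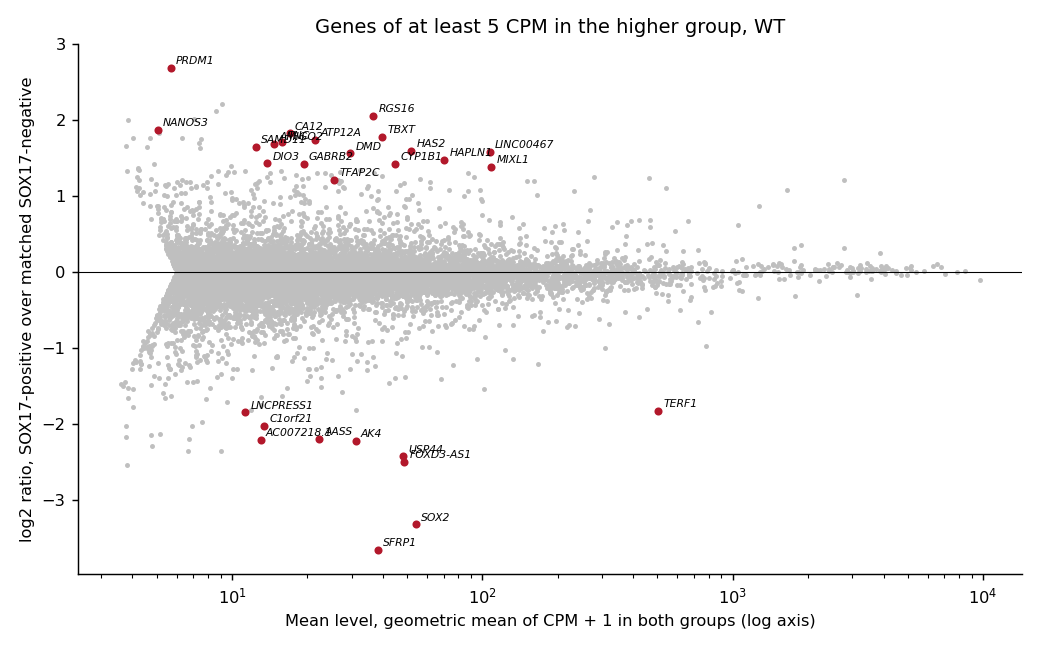
Log2 ratio of SOX17-positive over matched SOX17-negative WT cells against mean level (geometric mean of CPM plus 1, log axis) for genes that reached 5 CPM in either group, without the genes used to choose the cells. Red points are the 25 genes named by ratio with TFAP2C, PRDM1 and NANOS3; PRDM1 is the highest labelled point at 2.68 and SFRP1 the lowest at -3.66.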

How the data were processed

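The deposited files hold raw UMI counts for 33538 genes per cell. The authors made 10x Genomics 3′ v3 libraries and used Cell Ranger 3.0.2 and its GRCh38 reference, per the study's methods and the labels, and the deposited counts carry no limit on genes or mitochondrial share. Total UMIs per cell within the limits ran from 10002 to 400531 in WT and from 10014 to 148674 in GATA3 KO.

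Samples were grouped by the cell line label. Counts were summed per group and given as CPM with exact Poisson intervals, and shares with Clopper-Pearson intervals. A ratio is log2 of CPM plus 1 over the same, with an exact binomial interval. For a count of 0 the limit is 3 counts. Thinning drew 10000 UMIs per cell without replacement (seed 1). Matching took the nearest cells by log total UMIs, without replacement. SOX2-high cells have at least 2 SOX2 UMIs and less than 1 summed UMI of TFAP2A, HAND1, ISL1, MIXL1, EOMES and TBXT per 10000.

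Named are the genes of the lists, and the 15 highest and 10 lowest ratios among the 5391 genes that reached 20 CPM in either group, where no cell held over 20% of the higher group's UMIs and the direction was the same in the mean of per-cell CPM and in cells of at most 7500 genes. MT-, Y-linked and cell-choosing genes and XIST were left out. Members and lists were chosen with earlier results of these data known. Scrublet called 1 doublet in WT, too few for a working caller, so doublets were kept, and the 116 highest scores (0.8% per 1000 cells) were removed as an alternative. With 1 library per group, no test was possible. The ratio step was tested on simulated data.

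Python 3.11.15, numpy 2.4.6, scipy 1.17.1, pandas 2.3.3, scanpy 1.11.5 and, for TMM scaling of the summed counts alone, edgeR 4.0.16 were used. Positions came from GENCODE 44 by gene identifier (33113 placed).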

Additional observations from a re-analysis of the deposited data

Results flagged for a closer look

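Outside the UMI and mitochondrial limits, WT held 617 cells, and 4 of them (0.648%) had at least 2 SOX17 UMIs, against 156 of the 3185 cells within the limits (4.90%). They stood out only as SOX17 counts in cells that no comparison used. Of these 4, 2 had fewer than 10000 UMIs and 2 had more than 25% mitochondrial UMIs. GATA3 KO held 918 such cells and none with at least 2 SOX17 UMIs, which allows a share of up to 0.327%.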

How the results depend on the processing

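No paired analysis was possible because each condition was 1 library. The number of SOX17-positive cells in WT was 84 with at least 3 SOX17 UMIs, 117 with at least 20000 UMIs, 116 without the highest doublet scores and 156 without the CER1 and GSC limit, and fell to 50 with at most 7500 genes per cell. GATA3 KO held 2 such cells under every alternative but the one without the CER1 and GSC limit, which gave 4. The share of SOX17-positive cells with at least 2 of TFAP2C, PRDM1 and NANOS3, 10.3% after thinning to 10000 UMIs, was 18.8% at 20000 UMIs (1.37% in matched cells) and 52.1% without thinning (12.3%), as more UMIs per cell show more genes. It was 11.9% with at least 3 SOX17 UMIs, 14.0% with at most 7500 genes, 10.3% without the highest doublet scores and 5.98% in a second thinning, which was added after seeing the data. FOXA2 was at 0 under all alternatives but the one without the CER1 and GSC limit, where 2 of 156 cells (1.28%) had it after thinning to 10000 UMIs. The median of the germ-cell list, -0.21, was 0.47 over genes of at least 5 CPM. This leaves 6 genes, of which PRDM1 and NANOS3 reached that level in SOX17-positive cells only. For 34 single genes, 204 values were recomputed: 141 stayed within counting error, 63 moved and 1 of these, HAND1, changed sign. With 1 library per group, the spread between cultures is unknown, and genes under about 5 CPM are limited by depth.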
